A study of Mus musculus with 8 samples.

Results

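Transcript levels of 10 transcription factor genes that respond to the T cell antigen receptor were compared between TNFR2+ and TNFR2- regulatory T cells (Tregs). The genes were taken by name, without use of their values, though with earlier results of these data known. They were the NR4A orphan nuclear receptors (Nr4a1, Nr4a2 and Nr4a3), the EGR zinc finger factors (Egr1, Egr2 and Egr3), the NFAT factors Nfatc1, Nfatc2 and Nfatc3, and Tox. They are 10 of the 20172 genes in the table, and all 10 were among the 13990 genes that reached a mean of at least 10 normalized counts and were tested.

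The libraries were made from Tregs of the spleens of Foxp3 CreYFP mice (genotype Foxp3 YFP-cre), in which cells that transcribe Foxp3 carry a yellow fluorescent protein and Cre. No agent or other allele separated the groups. CD4 T cells were enriched, and fluorescent cells were sorted by surface TNFR2, the TNF receptor encoded by Tnfrsf1b, into 4 TNFR2+ and 4 TNFR2- libraries (replicates 1 to 4). The mice were 8 to 12 weeks old, and the series description names females where the methods name mice of both sexes. The labels do not say whether the libraries of a group came from separate mice, and a legend of the paper that gives their number beside the mice does not say whether any were pooled or split. A p-value then measures only the spread between these libraries, which may be technical.

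The 3 families are wired to the antigen receptor in different ways. Receptor ligation raises cytosolic calcium, calcineurin removes phosphates from NFAT proteins, and these enter the nucleus, where they act with AP-1 in activated cells and with Foxp3 in Tregs. The Nr4a and Egr genes are immediate-early genes whose transcripts appear within a short time of receptor signals, and Egr1 is reached mainly through the Ras and MAP kinase branch. NR4A proteins bind DNA without a known natural ligand and help to maintain Foxp3 in Tregs. Egr2, Egr3, Nfatc1 and Tox are known for programmes of restraint in T cells that are stimulated repeatedly, though not they alone.

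In no family were all genes called, and the NR4A family had called genes on both sides. Nr4a2, Nfatc1 and Tox were higher in TNFR2+ Tregs, Nr4a1 and Egr1 were lower, and Nr4a3, Egr2, Egr3, Nfatc2 and Nfatc3 did not pass the test (limma, adjusted p under 0.05 over all genes tested). Thus 3 of the 10 genes were called higher, where 4.52% of all tested genes were, and 2 were called lower, where 3.39% of all tested genes were. The 4 values of a group did not overlap those of the other group for 6 of the 10 genes, against 15.4% of all tested genes. For 4 of these 6 (Nr4a2, Egr2, Nfatc1 and Tox) the TNFR2+ libraries lay above, against 8.08% of tested genes, and for Nr4a1 and Egr1 they lay below, against 7.29%. The median log2 fold change of the 10 genes was 0.18, beside -0.01 over all tested genes. Both directions together, 7.91% of all tested genes passed the adjusted threshold, and 23.0% had an unadjusted p under 0.05.

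**Figure D1:**
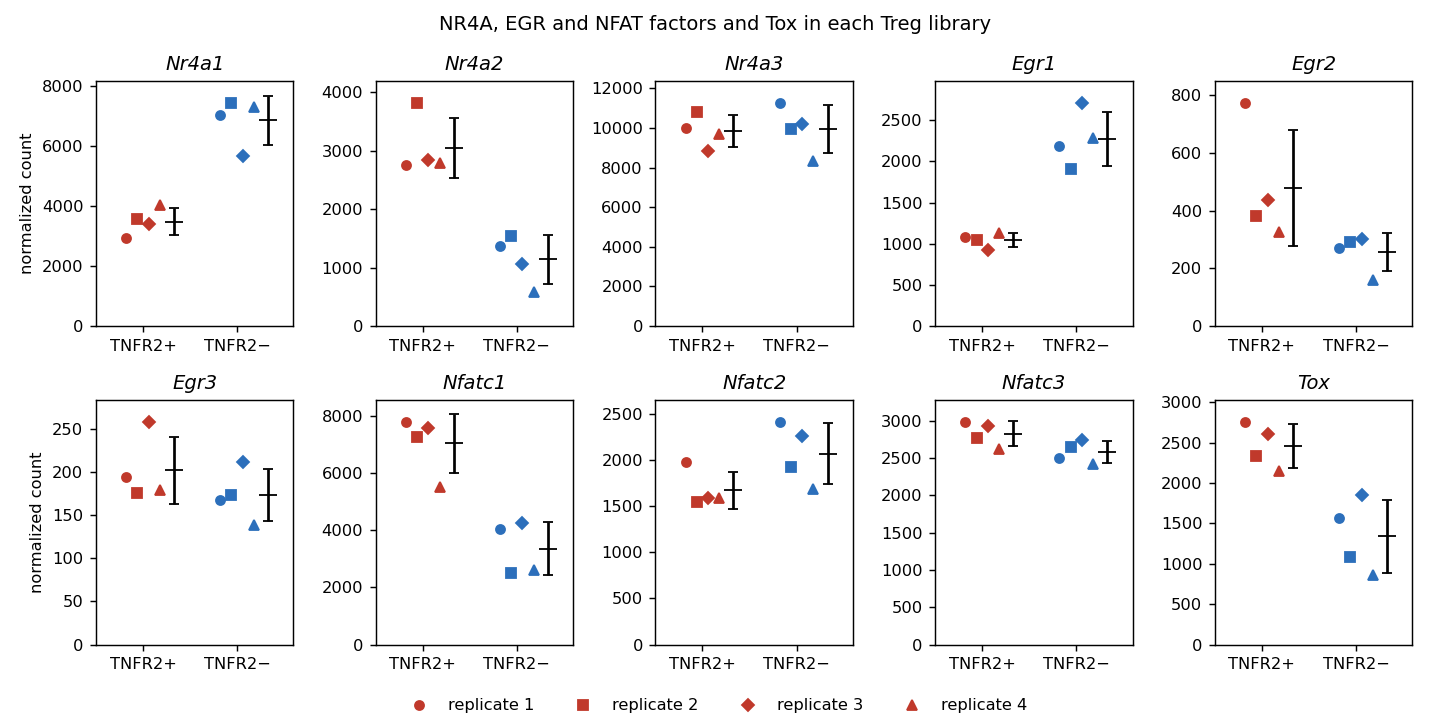
Normalized count (vertical axis, linear, from 0) of each of the 10 genes in the 4 TNFR2+ libraries (red) and the 4 TNFR2- libraries (blue), with a marker shape for each replicate number and the mean ± SD of each group as a black bar. The 2 groups are apart for Nr4a1, Nr4a2, Egr1, Egr2, Nfatc1 and Tox, and they share a range for Nr4a3, Egr3, Nfatc2 and Nfatc3.

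Sums of normalized counts lay between 9576920 and 11492762 in the 8 libraries, and estimated depths between 9100000 and 12112000 reads. Tnfrsf1b, the gene of the protein used for the sort, ranged from 1839.8 to 3148 normalized counts among the TNFR2+ libraries and from 1177 to 1563 among the others. Of the Treg-defining genes Cd3e, Cd4, Foxp3, Il2ra, Ctla4 and Ikzf2, all 6 were present in every library. In TNFR2+ Tregs 3 were called higher (Cd3e, Ctla4 and Ikzf2), against 4.52% of all tested genes. Il2ra lay lower in each TNFR2+ library without passing (log2 fold change -0.34, limma adjusted p = 0.0860), and Cd4 (0.28) and Foxp3 (-0.23) did not pass. TNFR2- replicate 3 stood apart on the second principal component, at 91.3, above the other 7 libraries. Leaving it out changed no call among the 10 factors, and the list genes whose calls it changed are named with their lists.

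Transcripts of other cells were low, with exceptions that moved with the groups. Of 10 B cell genes 8 were matched, and their summed level lay between 3612 and 5727 normalized counts among TNFR2+ libraries and between 1663 and 2647 among TNFR2- libraries. Ighm made up most of it and was called higher, while Cd79a and Fcer2a were under 10 in every library. Ms4a1 was at 19.6 to 99.4 over the 8 libraries and Cd79b at 2.25 to 64.6, both with overlapping groups. Ighd was at 41.1 to 73.5 in TNFR2+ libraries against 9.92 to 53.0, and it was not called. Of 12 myeloid genes 5 were matched, with sums of 164 to 212 and of 264 to 492, and Csf1r and S100a9 were under 10 in every library. All 3 tested myeloid genes had negative log2 fold changes. Xcr1 was called lower (-0.83), Itgam (-1.20) was lower in each TNFR2+ library without passing, and Siglech, at 16.1 to 69.4 against 40.5 to 114, overlapped (-0.99). Sums for 5 of 8 CD8 T and NK cell genes were 88.7 to 120 and 91.3 to 152, and for 2 of 8 erythroid and platelet genes 12.2 to 221 and 41.9 to 178. The part of such cells in the results was not tested, and in bulk RNA fewer cells with a transcript and less of it per cell cannot be told apart.

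Nr4a1, Nr4a2 and Nr4a3 lie on separate chromosomes, and the bases just before an annotated start of each are shown because the 3 genes took 3 different courses in these cells. The Nr4a1 start used lies within the annotated span of that gene (chr15:101254269-101274795), downstream of its first base. Starts were taken from RefSeq's GRCm38.p6 annotation. The 250 bases before each were searched on both strands for 6 of the 10 genes (Nr4a1, Nr4a2, Nr4a3, Egr2, Nfatc2 and Nfatc3). Egr1, Egr3, Nfatc1 and Tox were left out of the search, which does not mean that the annotation lacks them. Capitals mark TGACG or its reverse complement CGTCA, the 5-letter part of the cyclic AMP response element, and TTTCC, the reverse complement of the NFAT core GGAAA. The sequences are from chr15:101266596-101266845 (plus strand), chr2:57124004-57124253 (minus strand) and chr4:48045055-48045164 (plus strand). The last is given only for its first 110 bases, the last few of them already exonic, since the rest of that window lies in annotated Nr4a3 exons.
Nr4a1: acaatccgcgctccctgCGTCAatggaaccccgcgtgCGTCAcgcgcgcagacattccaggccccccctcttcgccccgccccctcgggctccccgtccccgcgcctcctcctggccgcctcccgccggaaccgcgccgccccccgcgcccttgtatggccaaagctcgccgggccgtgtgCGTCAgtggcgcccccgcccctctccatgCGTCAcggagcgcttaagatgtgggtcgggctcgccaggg
Nr4a2: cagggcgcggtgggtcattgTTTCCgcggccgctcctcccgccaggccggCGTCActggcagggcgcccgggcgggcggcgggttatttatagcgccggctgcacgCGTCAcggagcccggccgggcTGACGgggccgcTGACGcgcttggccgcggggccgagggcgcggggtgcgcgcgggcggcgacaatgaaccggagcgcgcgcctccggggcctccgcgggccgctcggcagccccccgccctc
Nr4a3: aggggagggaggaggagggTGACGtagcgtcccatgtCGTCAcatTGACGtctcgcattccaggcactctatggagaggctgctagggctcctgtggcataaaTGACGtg
Each NR4A window held 4 matches to TGACG, though in Nr4a3 only 3 of them precede its first annotated exon and the last lies inside it. At least 1 match was found in 17.8% of 32851 promoter windows of this length, and 4 or more in 0.137%; the number 4 was set after the matches were seen. The full element TGACGTCA (1.55% of windows), the NR4A site AAAGGTCA (1.34%), the EGR site GCGTGGGCG (0.536%), the AP-1 site TGANTCA (6.75%) and a CArG box (1.47%) had no match in these 3 windows. GGAAA, found in 55.6% of windows, had 1 match in that of Nr4a2. A match is a stretch of letters and was not tested for binding.

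Nr4a1 (chr15:101254269-101274795, plus strand) encodes Nur77, the NR4A factor used most often as a reporter of antigen receptor signals. It was at 2935, 3565, 3405 and 4051 normalized counts in TNFR2+ replicates 1 to 4 and at 7063, 7438, 5667 and 7303 in TNFR2- replicates 1 to 4. No TNFR2- library fell as low as the highest TNFR2+ one, replicate 4, and replicate 3 was the lowest on the TNFR2- side. Means were 3489 ± 460.1 (SD, n = 4) and 6868 ± 816 (SD, n = 4), a 1.97-fold lower level in TNFR2+ Tregs. The log2 fold change was -0.98 with an SE of 0.13 (limma, adjusted p = 5.87e-04).

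Nr4a2 (chr2:57106830-57124003, minus strand), which encodes Nurr1, went the other way. Its normalized counts were 2761, 3808, 2834 and 2785 in TNFR2+ Tregs and 1364, 1533, 1066 and 586 in TNFR2- Tregs. The TNFR2+ libraries were all higher, replicate 2 the highest, and TNFR2- replicate 4 was the lowest of the 8. The level was 2.82-fold higher in TNFR2+ Tregs, with a log2 fold change of 1.50 and an SE of 0.25 (limma, adjusted p = 0.00253). This was the largest of the 10 fold changes in either direction.

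Nr4a3 (chr4:48045153-48086447, plus strand), which encodes NOR-1, had the highest counts of the 3 in both populations. It was at 10013, 10780.0, 8856 and 9701 normalized counts in TNFR2+ Tregs and at 11244, 9925, 10220.1 and 8323 in TNFR2- Tregs. The groups overlapped, and both the highest and the lowest library were TNFR2- ones. The log2 fold change was -0.01, with a 95% confidence interval of -0.24 to 0.23 (limma, adjusted p = 0.977), and its sign changed when TNFR2+ replicate 3, TNFR2- replicate 1 or TNFR2- replicate 3 was left out.

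Egr2 (chr10:67535475-67542188, plus strand), a factor of T cell anergy and of the restraint of effector responses, was higher in each TNFR2+ library but did not pass the test. The bases before a start of Egr2 at chr10:67537619-67537868 (plus strand, RefSeq GRCm38.p6) are shown because they hold a CArG box, the element bound by serum response factor. Egr2 had 5 windows, of which 4 held such a box and 1, at the most upstream start, held none. The windows that begin at 67537619, 67537620 and 67537680 overlap and hold the same box, CCATATATGG. The window that begins at 67537316 holds another, CCTTTTTTGG. The window shown was picked after the matches were seen, as free of annotated exons and with the most matched letters. The NR4A genes had 1 window each. Capitals mark that box, 2 matches to TGACG on either strand and 1 to GGAAA on the minus strand.
Egr2: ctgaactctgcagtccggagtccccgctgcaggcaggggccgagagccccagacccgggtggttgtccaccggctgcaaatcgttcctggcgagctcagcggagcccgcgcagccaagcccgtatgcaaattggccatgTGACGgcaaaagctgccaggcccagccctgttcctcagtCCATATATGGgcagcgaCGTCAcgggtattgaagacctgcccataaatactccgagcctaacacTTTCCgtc
Normalized counts of Egr2 were 772, 382, 437 and 326 in TNFR2+ Tregs and 271, 292, 302 and 158 in TNFR2- Tregs. The groups did not overlap, but TNFR2+ replicate 1 was far above the other 3 and the gap between the nearest libraries, 326 and 302, was small. The log2 fold change was 0.87 with an SE of 0.29 (limma, adjusted p = 0.0848), and the exact two-sided permutation p was 0.0286, the smallest that 4 libraries against 4 can give. Over 17 other settings and left-out libraries the adjusted p ran from 0.0446 to 0.213.

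Egr3 (chr14:70077203-70082614, plus strand), which acts beside Egr2 in anergy, was the least abundant of the 10. It was at 195, 176, 259 and 179 normalized counts in TNFR2+ Tregs and at 169, 174, 212 and 139 in TNFR2- Tregs. These ranges overlapped. The log2 fold change of 0.22 had a 95% confidence interval of -0.29 to 0.73 (limma, adjusted p = 0.632).

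Egr1 (chr18:34859823-34864984, plus strand) encodes a zinc finger activator induced by growth factor and antigen receptor signals alike. It was at 1086.5, 1043, 920.0 and 1126 normalized counts in TNFR2+ Tregs and at 2186, 1910.1, 2705 and 2283 in TNFR2- Tregs. All TNFR2- libraries lay above the TNFR2+ ones, which differed little among themselves (coefficient of variation 8.54%). Egr1 was 2.16-fold lower in TNFR2+ Tregs, with a log2 fold change of -1.11 and an SE of 0.14 (limma, adjusted p = 4.94e-04).

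Nfatc1 (chr18:80606205-80713071, minus strand) encodes NFAT2, the family member whose own transcription rises through an inducible promoter after receptor signals. It was at 7798, 7264, 7583 and 5516 normalized counts in TNFR2+ Tregs and at 4033, 2517, 4267 and 2614 in TNFR2- Tregs. All TNFR2+ libraries were above all TNFR2- libraries, and within the latter replicates 1 and 3 lay above replicates 2 and 4. Nfatc1 was 2.14-fold higher in TNFR2+ Tregs, with a log2 fold change of 1.10 and an SE of 0.18 (limma, adjusted p = 0.00253). Without the intensity trend in the variances the adjusted p was 0.0525.

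Nfatc2 (chr2:168476410-168601657, minus strand) encodes NFAT1, the NFAT protein held ready in resting T cells. Its normalized counts were 1976.5, 1549, 1594 and 1587 in TNFR2+ Tregs and 2418, 1925, 2263 and 1685 in TNFR2- Tregs. TNFR2+ replicate 1 reached into the TNFR2- range while the other 3 lay below it. The log2 fold change was -0.30, with a 95% confidence interval of -0.61 to 0.01 (limma, adjusted p = 0.232), and the exact permutation p was 0.0857.

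Nfatc3 (chr8:106058840-106130537, plus strand) encodes NFAT4 and was the steadiest of the 10 genes. It was at 2988, 2775, 2934 and 2625 normalized counts in TNFR2+ Tregs and at 2509, 2653, 2741 and 2419 in TNFR2- Tregs, with coefficients of variation of 5.81% and 5.57%. The groups overlapped at their edges, and the log2 fold change of 0.13 had an interval of -0.09 to 0.36 (limma, adjusted p = 0.496). Nfatc3 shares exonic bases with Esrp2 on the opposite strand, and whether the abundance estimates used the strand of the reads is not given in the sources used here.

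Tox (chr4:6686353-6991557, minus strand) encodes an HMG-box factor that acts downstream of calcineurin and NFAT in chronically stimulated T cells. It was at 2760.3, 2333, 2607 and 2147 normalized counts in TNFR2+ Tregs and at 1569, 1086, 1858 and 857 in TNFR2- Tregs. The groups did not overlap, and as for Nfatc1 the TNFR2- replicates 1 and 3 lay above replicates 2 and 4. Tox was 1.91-fold higher in TNFR2+ Tregs, with a log2 fold change of 0.93 and an SE of 0.21 (limma, adjusted p = 0.0150). The call was lost without the intensity trend (adjusted p = 0.0980) and without TNFR2- replicate 2 (adjusted p = 0.0536). Some exonic bases of Tox are shared with Gm11802, annotated on the opposite strand.

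**Figure D2:**
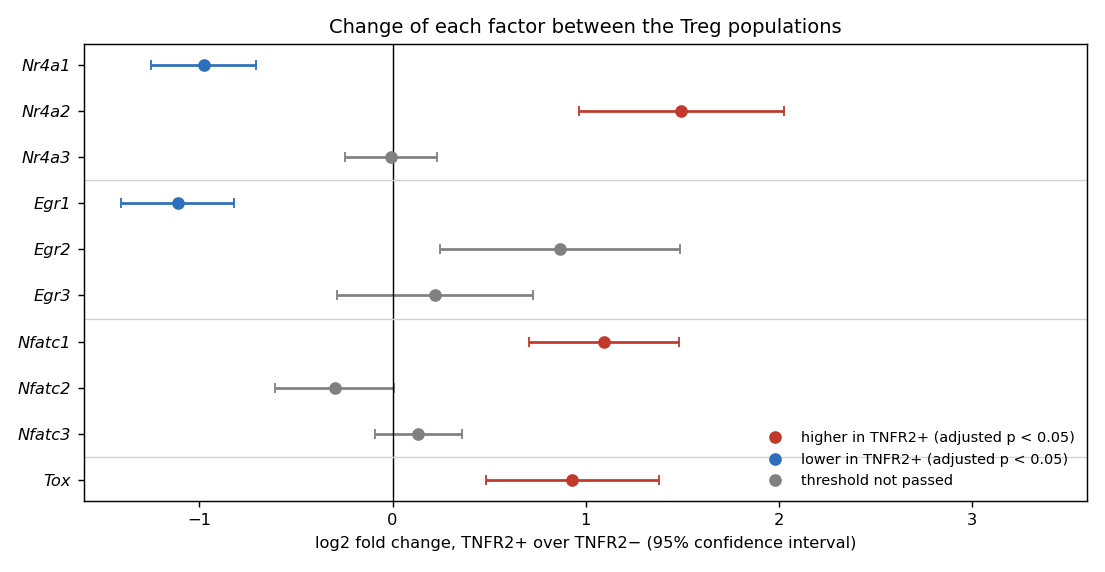
Log2 fold change of each gene, TNFR2+ over TNFR2- Tregs (horizontal axis), with its 95% confidence interval from limma. Red and blue points passed the adjusted p threshold as higher and lower, and grey points did not; within each family the points lie on different sides of or at different distances from 0, from -1.11 for Egr1 to 1.50 for Nr4a2.

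Because 2 genes of one library share its depth and handling, the log2 ratio of their normalized counts was formed within each library and compared between the groups. In all 9 within-family pairs the 4 TNFR2+ ratios did not overlap the 4 TNFR2- ratios (exact two-sided permutation p = 0.0286 for each, 0.0286 after adjustment over the 9 pairs, the smallest that this design allows). The pairs are not independent, since each gene is in 2 of the 3 pairs of its family and 6 of the 10 genes were already apart on their own. The share of all gene pairs that are apart in this way was not computed. The pair farthest apart was Nr4a1 and Nr4a2. Nr4a1 stood to Nr4a2 at log2 ratios of 0.09, -0.10, 0.27 and 0.54 in TNFR2+ Tregs, near equal counts, and of 2.37, 2.28, 2.41 and 3.64 in TNFR2- Tregs, a difference in means of -2.47. TNFR2- replicate 4, with the lowest Nr4a2, had the highest ratio.

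Egr1 stood to Egr2 at log2 ratios of 0.49, 1.45, 1.07 and 1.78 in TNFR2+ Tregs and of 3.01, 2.70, 3.16 and 3.85 in TNFR2- Tregs, a difference of -1.98. Egr1 relative to Egr3 differed by -1.33, and Egr2 relative to Egr3 by 0.65, where the nearest libraries of the groups were at 0.75 on both sides to 2 decimals (0.754 and 0.746). In the NFAT family the ratio of Nfatc1 to Nfatc2 was 1.98, 2.23, 2.25 and 1.80 against 0.74, 0.39, 0.91 and 0.63, a difference of 1.40. Nfatc1 relative to Nfatc3 differed by 0.96. Nfatc2 relative to Nfatc3 differed by -0.43, although neither gene passed the test on its own. The differences of the remaining NR4A pairs were -0.97 for Nr4a1 relative to Nr4a3 and 1.50 for Nr4a2 relative to Nr4a3.

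Per kilobase of the longest annotated coding transcript, the make-up of each family differed accordingly. Nr4a1 was 34.7% ± 3.64 (SD, n = 4) of the NR4A level in TNFR2+ Tregs and 56.7% ± 5.32 in TNFR2- Tregs. The share of Nr4a2 was 21.6% ± 2.21 and 6.64% ± 2.08, and that of Nr4a3 was 43.7% ± 2.71 and 36.6% ± 4.09. Thus, per kilobase, Nr4a3 held the largest share in each TNFR2+ library and Nr4a1 in each TNFR2- library. This depends on the transcript lengths used. Without division by length, Nr4a3 had more normalized counts than Nr4a1 in each TNFR2- library too. In the EGR family, Egr1 held 53.0% ± 8.03 in TNFR2+ Tregs and 79.5% ± 4.26 in TNFR2- Tregs, and Egr2 held 35.3% ± 8.59 and 13.6% ± 3.52. In TNFR2+ replicate 1, the library with the highest Egr2, the share of Egr2 (47.2%) exceeded that of Egr1 (43.9%), which was so in no other library. Nfatc1 held 66.9% ± 2.60 of the level of the 3 NFAT genes in TNFR2+ Tregs and 48.2% ± 5.28 in TNFR2- Tregs, and Nfatc2 held 11.3% ± 1.29 and 21.2% ± 1.27.

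Summed per kilobase, the 3 NR4A genes spanned 3674 to 4348 among TNFR2+ libraries and 4305 to 5115 among TNFR2- libraries, a ratio of means of 0.831 with overlapping groups. The EGR sum was 406 to 552 against 569 to 759, a ratio of 0.700 with no overlap. For NFAT the sum was 1821 to 2414 against 1196 to 1679, a ratio of 1.52, also with no overlap.

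**Figure D3:**
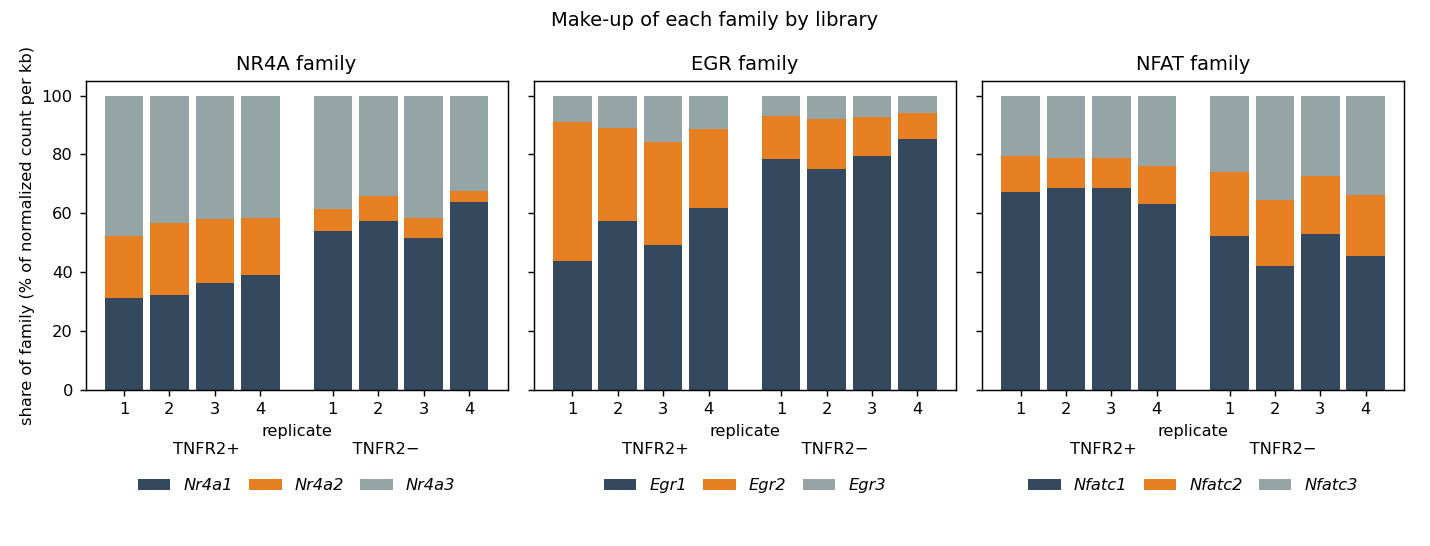
Share of each member in its family's summed normalized count per kilobase (vertical axis, percent) in each library (horizontal axis, replicates 1 to 4 of each group), as stacked bars. The Nr4a2 segment takes 19.2% to 24.5% in TNFR2+ and 3.67% to 8.46% in TNFR2- libraries, the Egr2 segment 27.1% to 47.2% and 8.90% to 17.3%, and the Nfatc1 segment 63.1% to 68.7% and 42.0% to 53.0%.

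The order of the 10 genes by mean level per kilobase also differed between the populations. In TNFR2+ Tregs it was Nr4a3 (1720 normalized counts per kilobase), Nfatc1 (1468), Nr4a1 (1367), Nr4a2 (854), Tox (622), Nfatc3 (473), Nfatc2 (246), Egr1 (233), Egr2 (162) and Egr3 (51.4). Neighbours whose ranges overlapped were Nr4a3 with Nfatc1, Nfatc1 with Nr4a1, Nfatc2 with Egr1, and Egr1 with Egr2. In TNFR2- Tregs the order per kilobase was Nr4a1 (2690.1), Nr4a3 (1736), Nfatc1 (700.0), Egr1 (507), Nfatc3 (431), Tox (339), Nr4a2 (319), Nfatc2 (304), Egr2 (86.2) and Egr3 (44.0). There only Nr4a1 and Nr4a3, Nr4a3 and Nfatc1, and Nfatc2 and Egr2 were neighbours with separate ranges. Nr4a1 moved from the third to the first place and Egr1 from the eighth to the fourth, while Nr4a2 moved from the fourth to the seventh.

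For each of the 5 called genes, the genes with the most similar profile were those with the smallest root mean square distance between log2 values, centred on each gene's mean, over the 8 libraries. Nr4a1 was nearest to Dgka (diacylglycerol kinase alpha), at 0.0480, followed by Macf1 at 0.0878 and Ikzf3 at 0.110. Egr1 was nearest to Lysmd3 at 0.0644, followed by Cmah at 0.171 and A430078G23Rik at 0.176. For Nfatc1 the nearest genes were Slc26a2 at 0.0986, N4bp1 at 0.127 and Pmaip1 at 0.140. Tox lay nearest to Ikzf2, the gene of the Treg factor Helios, at 0.0717, and then to Dst at 0.127 and Nsmaf at 0.136. No gene lay as near to Nr4a2, for which Gm3512 at 0.212, Mrps36 at 0.291 and Itgav at 0.291 came first.

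At the steps that lead to NFAT, the called genes were Itpr3 and Chp1. Over all tested genes, 7.91% passed the adjusted limma threshold in either direction and 23.0% had an unadjusted p under 0.05. These shares are the background for the counts given here and for the lists that follow. Of 12 genes of calcium release and entry only Itpr3, an inositol trisphosphate receptor, passed the test, and it was lower in TNFR2+ Tregs (2340 ± 107 against 3665 ± 498 normalized counts, SD, n = 4; log2 fold change -0.64, limma adjusted p = 0.00583). Of the 4 calcineurin subunits tested none was called, and 1 had an unadjusted p under 0.05. Among 5 tested proteins that bind and inhibit calcineurin, Chp1 was higher (log2 fold change 0.84, limma adjusted p = 0.0446), a call kept in 9 of 17 alternatives and lost, among others, without TNFR2- replicate 3. None of 6 tested NFAT kinases and Homer genes was called by limma, with 1 at an unadjusted p under 0.05. Medians of these 4 lists were 0.03, 0.12, -0.17 and -0.01 on the log2 scale, beside -0.01 over all genes.

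Genes that act with the EGR and NR4A factors were mixed. The EGR co-repressors Nab1 and Nab2 were not called (log2 fold changes 0.02 and -0.08; 0 of 2 at an unadjusted p under 0.05 in limma). None of 6 genes for serum response factor and its partners was called, with 1 at an unadjusted p under 0.05 in limma and a median of 0.17. Of 5 tested genes for NR4A partners and NR4A-dependent Treg factors, Ikzf2 (Helios; log2 fold change 0.95, limma adjusted p = 0.0145) and Ikzf4 (Eos; log2 fold change 0.90, limma adjusted p = 0.0425) were higher. Among all tested genes, 4.52% were called higher. The Ikzf2 call was kept in 15 of 17 alternatives and the Ikzf4 call in 8. Of the 5 genes, 0 were called without TNFR2- replicate 2 or without the intensity trend, and 1, Ikzf2, without any single other library except TNFR2+ replicate 4. Thus Ikzf4 was not called without TNFR2- replicate 3. Foxp3, to whose gene NR4A proteins bind, was at 2812, 3153, 3313 and 3226 normalized counts in TNFR2+ Tregs and at 3557, 3775, 3292 and 4033 in TNFR2- Tregs, overlapping ranges with a log2 fold change of -0.23 (limma, adjusted p = 0.232).

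Other members of the same families were less informative. Of Egr4, Nfat5, Tox2 and Tox4 none was called, with 1 at an unadjusted p under 0.05 in limma. That gene was Tox2, at 816, 766, 747 and 543 normalized counts in TNFR2+ Tregs and at 602, 172, 665 and 92.4 in TNFR2- Tregs, where replicates 1 and 3 lay with the TNFR2+ libraries and replicates 2 and 4 far below. Its log2 fold change was 1.33 (limma, adjusted p = 0.129), and it was called when TNFR2- replicate 3 was left out. Egr4 was near 14 normalized counts on average in both groups.

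Genes of the anergy programme that NFAT and EGR proteins drive went in both directions. Of 10, 2 were higher and 1 was lower in TNFR2+ Tregs, where 4.52% and 3.39% of all tested genes were. The median log2 fold change of the 10 was 0.33. It moved to -0.04 when only genes with a mean of at least 50 were kept and to 0.60 without TNFR2- replicate 1. Lag3, an inhibitory receptor, was at 670, 633, 612 and 248 against 159, 42.6, 353 and 27.6, so that TNFR2+ replicate 4 lay below TNFR2- replicate 3 (log2 fold change 2.46, limma adjusted p = 0.0327). The Lag3 call was kept in 11 of 17 alternatives. Dgka, which opposes the Ras branch by consuming diacylglycerol, was lower (4852 ± 576 against 9285 ± 916 normalized counts, SD, n = 4; log2 fold change -0.94, limma adjusted p = 4.94e-04). The ubiquitin ligase genes Cblb and Itch were at log2 fold changes of -0.30 and -0.22 and did not pass.

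Of 14 genes induced by the antigen receptor, 4 were higher and 2 were lower in TNFR2+ Tregs, with a median log2 fold change of -0.05. Among all tested genes, 4.52% were called higher and 3.39% lower. Tnfrsf9, a costimulatory receptor, was at 1234, 1797, 1542 and 1073 normalized counts against 339, 116, 335 and 171 (log2 fold change 2.66, limma adjusted p = 4.70e-04). Bhlhe40, a transcriptional repressor, was at 20206, 19207, 21780 and 14052 against 6730, 3018, 7625 and 2635, again with TNFR2- replicates 1 and 3 above 2 and 4 (log2 fold change 2.05, limma adjusted p = 0.00113). Batf, an AP-1 partner of IRF4 (log2 fold change 1.30), and Spry1, an inhibitor of Ras signalling (0.90), were the other higher genes. The lower genes were Dusp2, a MAP kinase phosphatase (-0.57), and Ier2 (-0.46), and neither was called when any 1 of the TNFR2+ replicates or TNFR2- replicate 2 was left out. Without TNFR2- replicate 3 the calls were 5 higher and 4 lower, with Irf4 added above and Nfkbid and Tagap below. Cd69 and Cd5, surface proteins often read as gauges of receptor signal, were at log2 fold changes of -0.09 and -0.07 and did not pass.

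**Figure D4:**
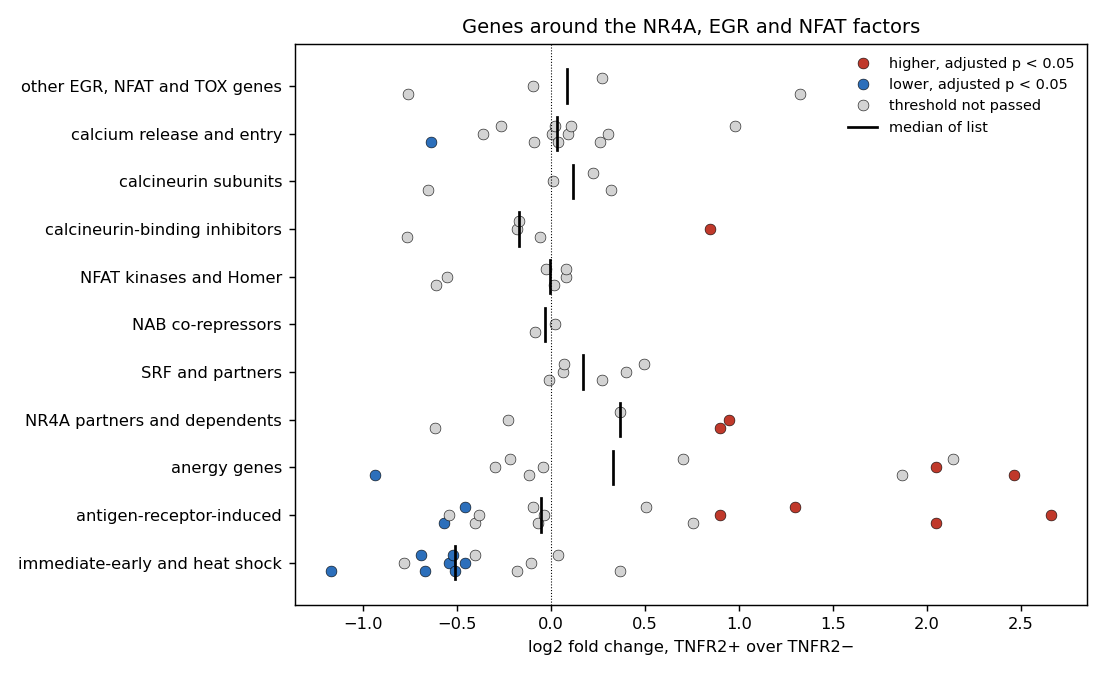
Log2 fold change, TNFR2+ over TNFR2- Tregs (horizontal axis), of each tested gene in 11 lists around the NR4A, EGR and NFAT factors (rows), with the list median as a black bar and called genes in red (higher) and blue (lower). The antigen-receptor-induced and anergy lists hold called genes on both sides of 0, and the immediate-early and heat shock list holds called genes only on the lower side.

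Among immediate-early and heat shock genes, which also respond to tissue handling and cell sorting, some were lower in TNFR2+ Tregs, as Nr4a1 and Egr1 were. Of 13 tested, 7 were lower, where 3.39% of all tested genes were, and 0 higher, where 4.52% were (limma). At an unadjusted p under 0.05 in limma, 9 were lower and 1 higher, against 23.0% of all tested genes in either direction. The median log2 fold change of the 13 was -0.51. The count of lower genes was 4 with libraries rescaled to equal nuclear sums, 1 without the intensity trend, and 3 to 5 when any 1 library was left out. Without TNFR2- replicate 3, Jund and Zfp36 were no longer called and Dusp1 was called higher. The mean log2 level of all 14 listed genes was 10.63 to 10.74 in TNFR2+ libraries and 11.03 to 11.07 in TNFR2- libraries. It includes Ier3, which was under 10 normalized counts in every library and was not tested. Jun, an AP-1 subunit, was at 8438, 9406, 11211 and 13779 normalized counts against 18337, 25851, 21651 and 30793, a log2 fold change of -1.17 (limma, adjusted p = 0.00119). Fos, its partner, was at 3699, 4510, 5363 and 4928 against 6847, 7045, 9078 and 6904, a log2 fold change of -0.69 (limma, adjusted p = 0.00663). Hspa1b (-0.67), Btg2 (-0.54), Zfp36 (-0.52), Jund (-0.51) and Ier2 (-0.46) were the other lower genes, while Dusp1 (0.37), Atf3 (0.04) and Junb (-0.18) were among the 6 that did not pass. The part of handling in the lower Nr4a1 and Egr1 was not tested.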

How the data were processed

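RNA from sorted TNFR2+ and TNFR2- Tregs (4 libraries each) was sequenced as stranded total RNA libraries. Per the submitters' processing notes, reads were checked with FastQC 0.11.8, trimmed with Trim Galore and quantified with Salmon 1.3.0 on the Ensembl GRCm38 transcriptome. The deposited values are a normalized signal per gene, that is gene counts divided by size factors by the authors (DESeq2 1.28, R 4.0), not on a log scale. Whether the strand was used in quantification is not given in the sources used here. Low values of long single-transcript genes lay near whole multiples of a step in 69.7% to 96.5% of cases, within 0.1, against 20% by chance, which gave an estimated depth for each library; reads of multi-transcript genes were not recovered and no count model was run.

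Values were taken as log2(normalized count + 1). Genes with a mean of at least 10 were tested with limma 3.58.1 in R 4.3.3 (intensity trend, two-sided, Benjamini-Hochberg over 13990 genes, threshold 0.05). The authors' own test was DESeq2. Fold changes understate low genes. Single genes and within-library ratios were tested with exact permutation over 70 relabellings (smallest p 0.0286). Levels per kilobase used the longest coding transcript of GENCODE M21 (GRCm38), and 20008 identifiers matched a symbol. Values close to 0 depend on the pseudocount.

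The genes and lists were chosen with earlier results of these data known. Named list genes were those with an adjusted p under 0.05, at most 6 per list, and for likeness the 3 nearest genes with a mean of at least 50. Genes that did not pass are named to give their values and were chosen after these were seen. The values of 1 gene of the anergy list are not reported here. The median squared difference between replicates of a group, scaled by their counts, was 14.8 to 28.0 times that of counting noise, so none were merged. On simulated data the model called 34.7% of 98 genes changed by 1 on the log2 scale and 79.2% of 96 changed by 2, with 2 unchanged genes called, over 13963 genes. Alternatives were 2 pseudocounts, 2 filters, no intensity trend, library weights, 2 rescalings, the replicate block and each library left out.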

Additional observations from a re-analysis of the deposited data

Results flagged for a closer look

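Of 58 groups of 4 libraries examined for a library far from the rest (the gap to the nearest value over the whole range, above Dixon's 95% critical value), 6 had one; chance gives about 1 in 20. Among the 10 factors, Nr4a2 was at 3808 normalized counts in TNFR2+ replicate 2, with the other 3 between 2761 and 2834. Egr2 was at 158 in TNFR2- replicate 4, with the others between 271 and 302. Nfatc2 was at 1976.5 in TNFR2+ replicate 1, with the others between 1549 and 1594. Among the list genes, Batf was at 384 in TNFR2+ replicate 4 (others 532 to 547) and Lag3 at 248 in the same library (others 612 to 670.2). Fos was at 9078 in TNFR2- replicate 3 (others 6847 to 7045).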

How the results depend on the processing

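Nr4a1, Nr4a2 and Egr1 kept their direction and stayed past the threshold under all 17 alternatives; Nfatc1 did so in 16 and Tox in 15. Nr4a1 lay between -1.07 and -0.89 on the log2 scale, Nr4a2 between 1.21 and 1.67, and Egr1 between -1.19 and -1.03. Without the intensity trend 1 of the 10 genes was called higher (Nr4a2), 283 and 182 of all genes were called higher and lower instead of 633 and 474, and 5 and 2 list genes instead of 9 and 10, with the fold changes as before. The log2 fold change of Nr4a3 changed sign with libraries rescaled to equal nuclear sums (0.0801), without TNFR2+ replicate 3 (0.0410), without TNFR2- replicate 1 (0.0542) and without TNFR2- replicate 3 (0.00832), and ran down to -0.0904 without TNFR2- replicate 4; the cause was not tested. That rescaling gave 834 higher and 358 lower genes, with the median of all genes at 0.08 instead of -0.01. With 1 library left out, 339 to 777 genes were called higher and 279 to 547 lower, the highest counts being those without TNFR2- replicate 3, and 5 to 10 list genes were called lower. Libraries with the same replicate number did not deviate together (r between -0.04 and 0.0005), and 0 of 8 correlated best with its own number; a fit with the replicate block called 675 genes higher and 508 lower, with Egr2 added (adjusted p = 0.0446) to the factors called. Differences in the 9 within-family ratios kept their direction throughout, but 3 libraries against 4 cannot give an exact p below 0.0571. The depth (9100000 to 12112000 reads) and 4 libraries a group limit the call of low genes such as Egr4.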
